A study of Mus musculus with 61 samples.

Results

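The transcripts of 9 immediate early genes were followed cell by cell in oocytes and granulosa cells of the neonatal mouse ovary. They are the Fos family members Fos, Fosb and Fosl2, the Jun family members Jun, Junb and Jund, the related factor Atf3, the zinc finger factor Egr1 and the nuclear factor Ier2. They were chosen by name from the 23927 gene rows of 1 count table, and all 9 had a row. Single-cell SMART-Seq2 libraries had been made from ovaries of wild-type CD-1 mice, an outbred stock, at postnatal day 5, collected 6 hours after an intraperitoneal injection. The mice had received either solvent (control) or doxorubicin, a DNA-damaging anticancer drug. The labels write the dose as 10 mg/kb, a unit that gives no dose per body weight, so the dose given is uncertain. The 61 libraries were 16 control oocytes, 16 doxorubicin oocytes, 16 control granulosa cells and 13 doxorubicin granulosa cells, all under 1 batch label.

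No label ties a cell to an animal, a litter or a cell preparation, so each group counts as 1 sample. No difference between groups could be tested, and cells describe the spread within a group. Library totals ran from 6834594 to 31262609 counts. Levels are counts per 1000000 counts of the cell (CPM), and a group level is the summed count of its cells on the same scale. Ratios are log2 ratios of group levels. Their 95% intervals cover counting error only, and amplified reads without molecular identifiers are not independent molecules.

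AP-1 is a dimer of leucine zipper proteins. Fos proteins need a Jun partner to bind DNA, Jun proteins can also pair with each other, and Atf3 pairs with Jun proteins or with itself. Immediate early genes are transcribed within minutes of a growth factor or stress signal, through factors already present such as SRF with its ELK partners and CREB, and their transcripts are short-lived. Jun protein is a substrate of JNK, the stress kinase that the series title names, and granulosa cells are known to raise Fos and Egr1 after hormonal signals.

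All 32 oocyte libraries held more oocyte than granulosa marker transcript, but the granulosa label was less clean. The oocyte marker sum (17 genes, among them Ddx4, Gdf9 and Zp3) exceeded the granulosa marker sum (17 genes, among them Amh, Foxl2 and Fst) in 3 of 16 control and 8 of 13 doxorubicin granulosa libraries. The granulosa marker sum ranged from 567 to 14876 CPM (median 5045) in control granulosa cells and from 1093 to 10419 CPM (median 2784) in doxorubicin granulosa cells. In oocytes it ranged from 6.27 to 821 CPM (median 76.1) with solvent and from 11.6 to 3123 CPM (median 61.4) with doxorubicin. No granulosa marker was at 0 over either oocyte group, and in control granulosa cells Oosp1 was the only oocyte marker at 0. Stroma markers (8 genes, collagens among them) reached 911 CPM with solvent and 2028 CPM with doxorubicin in oocytes, and 13451 and 8635 CPM in granulosa cells. They exceeded granulosa markers in control granulosa 2, 8, 13, 14 and 16 and in doxorubicin granulosa 6 and 13. One library, doxorubicin granulosa 15, held 33378 CPM of blood and immune markers.

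The DNA just upstream of the start sites shows what the family shares and where it differs. It is printed for the 5 members with motif matches whose printed bases lie mostly outside annotated exons. RefSeq promoter entries on GRCm38.p6 (the mm10 build) matched 7 of the 9 members, all but Egr1 and Ier2. The 250 bases upstream of each start were searched on both strands for 7 motifs. The last 140 of them are given below, 5′ to 3′ on the gene's strand, ending at the base before the RefSeq start, with motif matches in capitals. The windows are chr12:85473750-85473889 (plus strand) for Fos, chr7:19310046-19310185 (minus) for Fosb, chr4:95052223-95052362 (minus) for Jun, chr8:84978749-84978888 (minus) for Junb and chr1:191183334-191183473 (minus) for Atf3. Those of Fos, Jun and Junb lie outside the annotated gene in GENCODE M21, that of Fosb overlaps its first exon by 6 bases, and that of Atf3 lies inside the longer annotated gene, with 7 bases in an exon. The windows searched for Fosl2 and Jund rest on other starts than the GENCODE ones. The last 140 bases for Fosl2 all lie in annotated exons, and those for Jund end at base 70697738 of chromosome 8, upstream of its GENCODE gene start at 70698949.
Fos: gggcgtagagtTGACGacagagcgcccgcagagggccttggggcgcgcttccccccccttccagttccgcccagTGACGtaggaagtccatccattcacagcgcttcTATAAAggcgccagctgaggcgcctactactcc
Fosb: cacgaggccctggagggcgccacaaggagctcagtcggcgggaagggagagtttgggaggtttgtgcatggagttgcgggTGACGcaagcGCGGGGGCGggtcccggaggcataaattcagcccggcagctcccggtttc
Jun: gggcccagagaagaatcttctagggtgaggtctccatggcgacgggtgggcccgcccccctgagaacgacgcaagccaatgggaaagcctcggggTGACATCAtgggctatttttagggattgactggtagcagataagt
Junb: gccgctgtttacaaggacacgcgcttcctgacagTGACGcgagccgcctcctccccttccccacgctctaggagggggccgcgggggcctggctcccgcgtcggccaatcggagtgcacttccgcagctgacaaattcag
Atf3: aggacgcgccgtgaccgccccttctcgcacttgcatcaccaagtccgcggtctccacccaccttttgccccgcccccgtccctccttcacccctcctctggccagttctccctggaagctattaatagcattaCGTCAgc
The letters TGACG, the core of the site bound by CREB and ATF proteins, stood in the windows of Fos (starting at -129 and at -66 from the start site), Fosb, Junb and Atf3. That was 4 of 7 members searched, against 17.8% of all 32851 promoter windows. Jun held TGACATCA at -45 to -38, a variant site at which Jun and ATF dimers are known to bind, present in 2.93% of all windows. GCGGGGGCG, letters that Egr1 can bind, stood in Fosb at -50 to -42 and in Fosl2 at -79 to -71, against 2.57% of all windows. Fos also held TATAAA at -33 to -28, as did 12.4% of windows. The full letters TGACGTCA (1.55% of windows), the AP-1 letters TGACTCA (4.46%) and the CArG box bound by SRF (1.47%) were in none of the 7 windows. TGACGTCA contains TGACG, so these motifs overlap. A match is a description of the reference letters, which come from another mouse strain, and the windows leave out more distant sites.

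All 9 transcripts were far lower in oocytes than in granulosa cells of solvent-treated mice. Their log2 ratios ran from -5.13 for Atf3 to -3.84 for Jund, with a median of -4.52 against -0.03 over the 12373 genes that reached 5 CPM in one group or the other. All 9 lay past 2-fold lower, as did 31.3% of all genes, and 60.3% of genes passed 2-fold in either direction. The cells of the control groups did not overlap for Jun and Jund, and for the other 7 they did. Of all genes, 0.453% were lower and 3.25% higher in oocytes without overlap. The 9 transcripts together took 0.35% to 2.31% of the counts of a control granulosa cell (median 0.972%) and 0.00222% to 0.23% of those of a control oocyte (median 0.0277%). Of 24 other immediate early genes with enough counts, such as Nr4a1, Zfp36 and Dusp1, all 24 were likewise past 2-fold lower in oocytes, with a median of -4.38. Without the 5 control oocytes at 200 CPM or more of granulosa markers and the 3 control granulosa cells richer in oocyte markers, the median of the 9 members was -4.98.

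**Figure D1:**
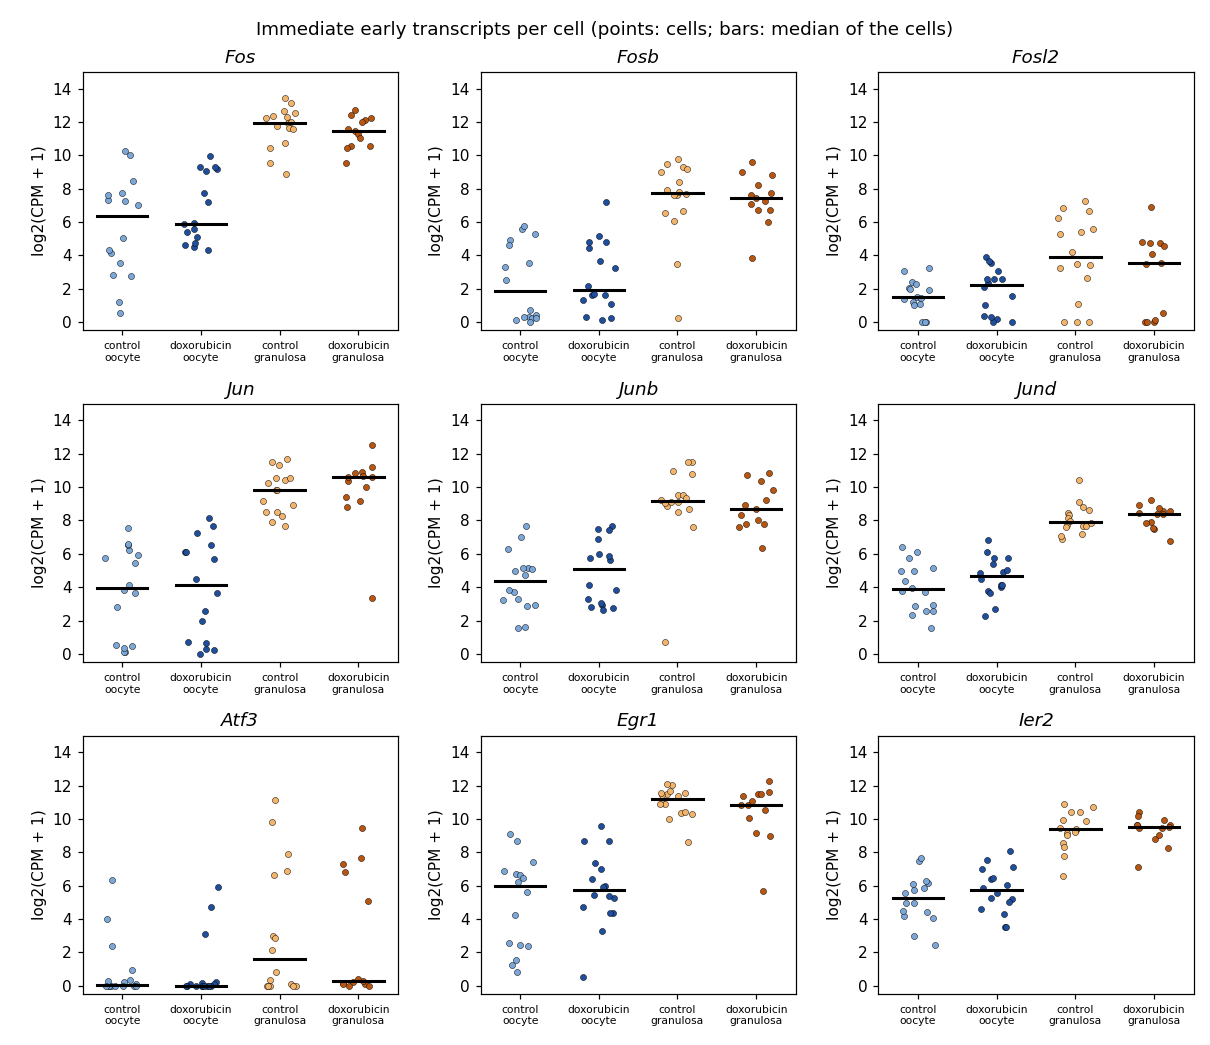
Level of each member in each cell, as log2(CPM + 1), by group; points are cells and bars are group medians. Most granulosa cells sit far above the oocytes for 7 genes, Fosl2 and Atf3 lie low with many cells near 0, and control and doxorubicin cells overlap in every panel.

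Per kilobase of the longest annotated transcript, Fos had the highest group level in control granulosa cells, at 2099 CPM per kb. Junb (569), Ier2 (549) and Egr1 (529) were close together, followed by Jun (377), Jund (212), Atf3 (121), Fosb (80.3) and Fosl2 (6.24). In control oocytes Fos was again first at 99.8 CPM per kb, ahead of Ier2 (34.6), Egr1 (23.0), Junb (21.2), Jund (14.8), Jun (14.5), Atf3 (3.47), Fosb (3.38) and Fosl2 (0.389). Both cell types therefore held Fos at the top and Fosl2 at the bottom on this scale of summed counts. The 4 highest cells held 78.4% of the Fos counts of control oocytes. In the 9 control oocytes under 200 CPM of granulosa and of stroma markers the order differed. There Fos was at 29.2 and Ier2 at 28.2 CPM, and Ier2, with the shorter transcript, stood first per kb. Atf3 (0.574 CPM) fell just below Fosl2 (2.06 CPM) per kb, and both were scarce.

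Fos, the prototype Fos protein, was measured from 0.463 to 1206 CPM in control oocytes (median 79.7) and from 19.3 to 1001 CPM in doxorubicin oocytes (median 58.7). In granulosa cells it ranged from 462 to 10875 CPM (median 3986) with solvent and from 740 to 6623 CPM (median 2808) with doxorubicin. Control oocytes were the more spread out, with 4 of 16 below 10 CPM of Fos and none of the 16 doxorubicin oocytes below that level. The log2 ratio of doxorubicin over control was 0.24 (interval 0.22 to 0.26) in oocytes and -0.44 (-0.44 to -0.43) in granulosa cells. The oocyte ratio turned on single cells, being -0.09 without doxorubicin oocyte 12 and 0.72 without control oocyte 4. In granulosa cells it stayed between -0.58 and -0.26 over leaving out each cell.

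Fosb, a Fos protein with a strong activation domain, was low in oocytes, from 0 to 52.1 CPM with solvent (median 2.70) and from 0.107 to 144 CPM with doxorubicin (median 2.81). At least 5 reads of Fosb were found in 9 of 16 control oocytes (56.2%, exact binomial interval 29.9 to 80.2) and in 13 of 16 doxorubicin oocytes (81.2%, 54.4 to 96.0). Doxorubicin oocyte 12 alone held 50.5% of the group's Fosb counts, and the log2 ratio of 0.47 became -0.45 without it. Granulosa levels ran from 0.163 to 867 CPM (median 214) and from 13.3 to 780 CPM (median 173), with a log2 ratio of -0.27.

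Fosl2, also called Fra-2, which lacks the strong activation domain of Fos, was the scarcest Fos transcript. It ranged from 0 to 8.40 CPM in control oocytes (median 1.80) and from 0 to 13.6 CPM in doxorubicin oocytes (median 3.75). Its oocyte log2 ratio of 0.78 (0.62 to 0.94) stayed positive over leaving out each cell, at 0.56 to 1.03, and 10 of 16 doxorubicin cells lay above the control median. Because both oocyte groups were under 5 CPM, Fosl2 is not among the 8 members counted for oocytes. Granulosa cells held 0 to 152 CPM with solvent (median 13.6) and 0 to 118 CPM with doxorubicin (median 10.4). The granulosa log2 ratio was -0.99, from -1.82 without doxorubicin granulosa 4 to -0.63 without control granulosa 10.

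Jun, the AP-1 subunit that JNK phosphorylates, was the only member whose group level was higher with doxorubicin in granulosa cells. It ran from 199 to 3245 CPM in control granulosa cells (median 915) and from 9.03 to 5820 CPM in doxorubicin granulosa cells (median 1529), and 9 of 13 doxorubicin cells lay above the control median. The log2 ratio was 0.46 (0.45 to 0.47) and fell to 0.08 without doxorubicin granulosa 9, which held 29.3% of the counts. The groups overlapped over most of their range, and the lowest Jun level of all granulosa cells was in a doxorubicin cell. In oocytes Jun ran from 0.0829 to 187 CPM (median 14.6) and from 0 to 278 CPM (median 16.3). The oocyte ratio of 0.29 became -0.06 without doxorubicin oocyte 11.

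Junb, a Jun protein that often restrains Jun, was higher with doxorubicin in oocytes and lower in granulosa cells. It ran from 1.99 to 200.2 CPM in control oocytes (median 19.4) and from 5.12 to 200.5 CPM in doxorubicin oocytes (median 32.4). The oocyte log2 ratio was 0.57 (0.53 to 0.61), from 0.36 without doxorubicin oocyte 10 to 0.99 without control oocyte 4. In granulosa cells Junb ran from 0.644 to 2957 CPM (median 572) and from 81.6 to 1803 CPM (median 410), with a log2 ratio of -0.59 that stayed between -0.83 and -0.37.

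Jund, the most constitutively expressed Jun protein, had a higher median with doxorubicin in both cell types. It ran from 1.91 to 83.4 CPM in control oocytes (median 13.6) and from 3.81 to 110 CPM in doxorubicin oocytes (median 24.6), where 12 of 16 cells lay above the control median. Its oocyte log2 ratio was 0.32, from 0.10 to 0.54 over leaving out each cell. Granulosa cells ran from 120 to 1391 CPM (median 240) and from 106 to 609 CPM (median 334). Their log2 ratio of summed counts was -0.10 and became 0.25 without control granulosa 3, the cell at 1391 CPM.

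Atf3, a stress-induced factor that often represses, was a transcript of a few cells rather than of a group. In oocytes it ran from 0 to 79.0 CPM with solvent (median 0.0396) and from 0 to 60.1 CPM with doxorubicin (median 0). In granulosa cells it ran from 0 to 2274 CPM with solvent (median 2.10) and from 0 to 715 CPM with doxorubicin (median 0.219). At least 5 reads were found in 4 of 16 and 3 of 16 oocytes, and in 9 of 16 and 5 of 13 granulosa cells, in the order control and doxorubicin. The 4 highest cells of each group held 97.3% to 99.7% of its Atf3 counts. The granulosa log2 ratio was -1.39 (-1.42 to -1.36), the only member past 2-fold there, but control granulosa 3 held 65.3% of the control counts and without it the ratio was 0.033. In oocytes the ratio of -0.19 ranged from -1.42 to 1.08 over leaving out each cell.

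Egr1, a zinc finger factor induced with Fos, ran from 0.738 to 541 CPM in control oocytes (median 60.8) and from 0.449 to 756 CPM in doxorubicin oocytes (median 51.5). Granulosa cells held 392 to 4445 CPM with solvent (median 2325) and 50.2 to 4933 CPM with doxorubicin (median 1853). The log2 ratio was 0.33 in oocytes and -0.21 in granulosa cells, and the oocyte value became -0.12 without doxorubicin oocyte 11.

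Ier2, a small nuclear protein of the immediate early set, ran from 4.39 to 205 CPM in control oocytes (median 38.0) and from 10.3 to 267 CPM in doxorubicin oocytes (median 51.7). Its oocyte log2 ratio was 0.51, from 0.24 to 0.76 over leaving out each cell. Granulosa cells held 94.7 to 1890 CPM with solvent (median 665) and 141 to 1355 CPM with doxorubicin (median 739). The ratio of summed counts was -0.20, while the doxorubicin median was the higher one and 9 of 13 doxorubicin cells lay above the control median.

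Over the 8 members that reached 5 CPM in oocytes, 7 were higher with doxorubicin and Atf3 was lower, with a median log2 ratio of 0.32 against 0.01 over 11119 genes. None of the 8 passed 2-fold in oocytes, where 8.75% of all genes did (6.3% higher and 2.45% lower). With only 8 members, this count cannot be told apart from that share. In granulosa cells 8 of 9 were lower and Jun higher, with a median of -0.27 against -0.03 over 12194 genes. Of the 9, 1 passed 2-fold there, beside 40.6% of all genes (20.6% higher and 20% lower). That count also rests on few members, and it ran from 0 to 2 over leaving out each cell. No member, and 0% of all genes, had doxorubicin cells that did not overlap control cells in either cell type. The difference between the cell types in response was not tested. Granulosa marker sums and oocyte marker sums also differed between the granulosa groups, as given above, and their part in these ratios was not tested. Over the 13 control and 5 doxorubicin granulosa cells that held more granulosa than oocyte markers, the median was -0.19, with Atf3 (-2.37) and Fosl2 (-1.77) past 2-fold lower. There Egr1 turned to 0.38, Jun stayed higher at 0.51, Junb was at -0.40, Fos at -0.19 and Ier2 at -0.089. That subset still held control granulosa 2 and 16 and doxorubicin granulosa 13, each with more stroma than granulosa marker transcript. It also held doxorubicin granulosa 15, the library rich in blood and immune markers.

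**Figure D2:**
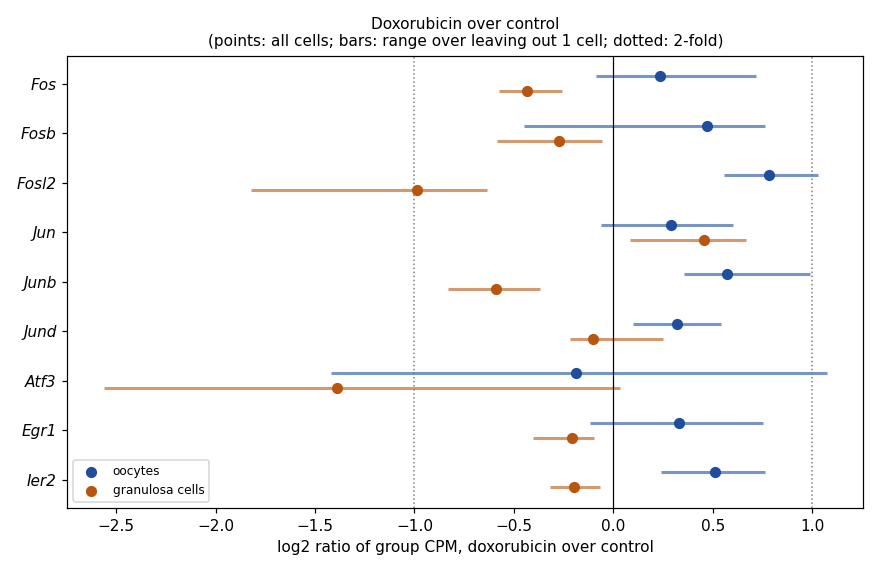
Log2 ratio of group CPM, doxorubicin over control, for each member in oocytes (blue) and granulosa cells (brown); bars span the values over leaving out 1 cell at a time and dotted lines mark 2-fold. Fosl2, Junb and Ier2 keep opposite signs in the 2 cell types over those ranges, and Atf3 has the widest bars, from -2.56 to 0.033 in granulosa cells.

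Oocytes with many immediate early transcripts were largely those with many transcripts of other cells. The summed level of the 9 members ran from 22.2 to 2298 CPM in control oocytes (median 277) and from 78.0 to 2129 CPM in doxorubicin oocytes (median 228). Across the 16 control oocytes it followed the granulosa marker sum with a Spearman rho of 0.81 and the stroma marker sum with 0.72. Across the 16 doxorubicin oocytes these were 0.67 and 0.80. Control oocytes 4 and 9 had the highest member sums (2298 and 2118 CPM) and stroma marker sums of 911 and 740 CPM. Doxorubicin oocytes 12, 11 and 9 had member sums of 2129, 1934 and 1609 CPM and granulosa marker sums of 2081, 2787 and 3123 CPM. The Spearman coefficient with total counts was 0.06 in control and -0.35 in doxorubicin oocytes. Across granulosa cells the member sum had a rho of -0.41 (16 control cells) and 0.42 (13 doxorubicin cells) with the granulosa marker sum, and of 0.52 and 0.67 with total counts. These rhos describe cells of 1 sample each and share the cell's total as a denominator. The part of transcripts from other cells in the member levels of oocytes was not tested.

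**Figure D3:**
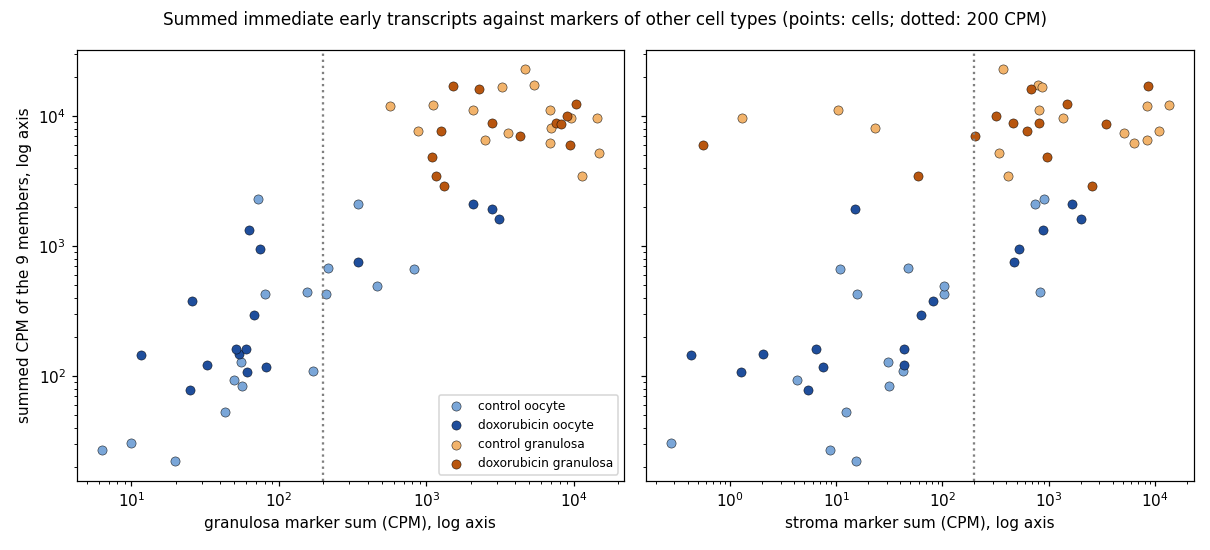
Summed CPM of the 9 members against the granulosa marker sum (left) and the stroma marker sum (right) in each cell, on log axes; dotted lines mark 200 CPM. Oocytes with the highest member sums, up to 2298 CPM, lie to the right of 200 CPM on at least 1 of the panels, and granulosa cells form a separate cloud from 2885 CPM up.

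The median oocyte held a larger share of the granulosa level for some members than for granulosa markers. The median granulosa marker sum of control oocytes was 1.51% of that of control granulosa cells. For the members the same percentage was 1.27% for Fosb, 1.60% for Jun, 1.89% for Atf3, 2.0% for Fos, 2.61% for Egr1, 3.40% for Junb, 5.67% for Jund, 5.72% for Ier2 and 13.2% for Fosl2. In doxorubicin oocytes the granulosa marker sum stood at 1.22%, Fos at 1.47%, Junb at 5.67%, Ier2 at 7.76%, Jund at 10.3% and Fosl2 at 27.5%. Jund, Ier2, Junb and Fosl2 thus stood above the granulosa marker percentage in both groups by more than 2-fold. Fos, Jun and Fosb lay near it, and Egr1 stood above it by less than 2-fold. Atf3 lay near it in control oocytes and had a median of 0 CPM in doxorubicin oocytes. For stroma markers the oocyte median was a larger percentage of the control granulosa median than for granulosa markers, in both groups. On that scale Junb had no excess in control oocytes, where it lay just below the stroma marker percentage. In doxorubicin oocytes Junb lay near that percentage. Jund, Ier2 and Fosl2 stayed above it in both groups, by less than they exceeded the granulosa marker percentage. Whether Jund, Ier2, Junb or Fosl2 exceed the transcripts brought by other cells was not tested.

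Among oocytes with under 200 CPM of granulosa markers and under 200 CPM of stroma markers, the members were lower and doxorubicin cells lay higher within that low range. This subset was chosen after seeing the data and held 9 control and 10 doxorubicin oocytes. Its granulosa marker sums were 6.27 to 171 CPM (median 49.4) in control and 11.6 to 81.4 CPM (median 52.2) in doxorubicin cells. Fos ran from 0.463 to 155 CPM in control (median 10.6) and from 19.3 to 146 CPM in doxorubicin oocytes (median 37.5), and all 10 doxorubicin cells lay above the control median. Egr1 ran from 0.738 to 104 CPM (median 4.48) and from 0.449 to 84.8 CPM (median 31.9), with 9 of 10 doxorubicin cells above the control median. Jund ran from 1.91 to 19.9 CPM (median 6.42) and from 3.81 to 31.9 CPM (median 15.7), with 8 of 10 above. Ier2 medians were 20.8 and 33.5 CPM, Fosb medians 0.249 and 1.75 CPM, Jun medians 0.461 and 1.78 CPM, Fosl2 medians 1.30 and 3.02 CPM, and Junb medians 8.21 and 8.01 CPM, control first. The groups overlapped for every gene, and for Fos, Fosb and Egr1 no doxorubicin cell exceeded the highest control cell.

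In that subset all 6 members that reached 5 CPM were higher with doxorubicin, with a median log2 ratio of 0.62 against 0.01 over 10863 genes. Jund alone passed 2-fold (1.05, interval 0.92 to 1.17, and 0.85 to 1.26 over leaving out each cell), as did 7.77% of all genes in that direction. Fos had a log2 ratio of 0.68, Junb of 0.76, Egr1 of 0.53, Jun of 0.56 and Ier2 of 0.34. Control oocyte 1 had the highest control level of 7 of the 9 genes, and without it the ratio was 2.04 for Fos, 1.56 for Egr1 and 1.31 for Junb. Jun became -0.39 without doxorubicin oocyte 4. Cuts on only some of these markers gave a median near 0. It was -0.022 without the 5 control and 4 doxorubicin oocytes at 200 CPM or more of granulosa markers. There Junb was at -0.022, Egr1 at -0.58, Fos at -0.14 and Jun at 1.49. That cut kept control oocytes 4 and 5 (911 and 834 CPM of stroma markers) and doxorubicin oocytes 2 and 6 (525 and 885 CPM). Over oocytes under 500 CPM of stroma, endothelium and blood markers the median was -0.019. This cut kept doxorubicin oocyte 11, with 2787 CPM of granulosa markers. The direction of the median in oocytes, and of the members other than Fosl2, Jund and Ier2, therefore depended on which cells were kept. Those members stayed higher with doxorubicin under each cut. Under the 500 CPM cut, for example, Fosl2 was at 0.47, Jund at 0.24 and Ier2 at 0.13.

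**Figure D4:**
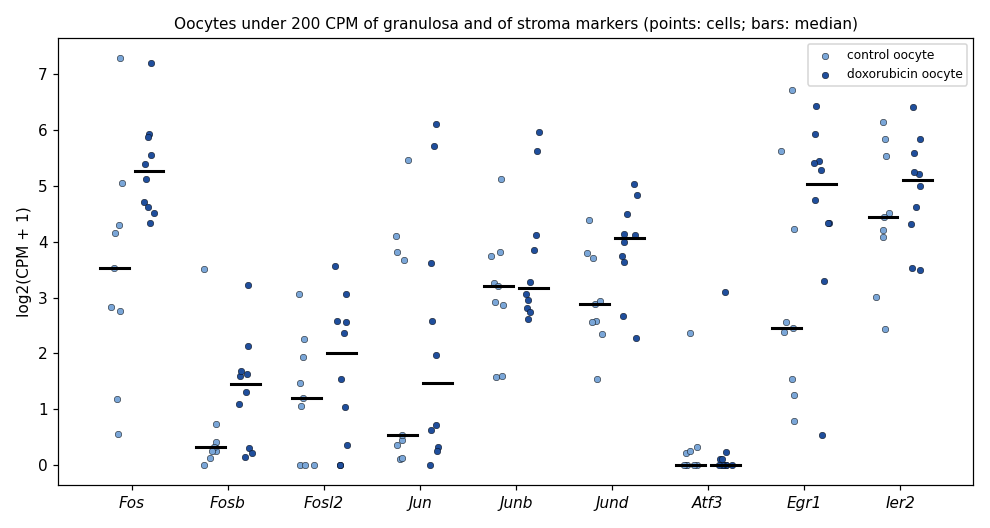
Level of each member as log2(CPM + 1) in the 9 control and 10 doxorubicin oocytes under 200 CPM of granulosa and of stroma markers; points are cells and bars are medians. Medians of Fos (10.6 and 37.5 CPM), Egr1 (4.48 and 31.9) and Jund (6.42 and 15.7) are higher with doxorubicin, Junb medians are alike, and the cells overlap.

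The members, Fosl2 apart, varied together across oocytes. In control oocytes 8 members with at least 5 reads in at least 0.5 of the cells formed 28 pairs, with a median Spearman rho of 0.76, and 21 of 28 pairs reached 0.5. Over all pairs of 12130 genes the median was 0.00 and 3.52% of pairs reached 0.5. In doxorubicin oocytes the median was 0.67, again with 21 of 28 pairs at 0.5 or more, against 3.56% of all gene pairs. The closest pairs were Fos with Jund (0.91), Fos with Fosb (0.89) and Fos with Egr1 (0.86) in control oocytes, and Fos with Jun (0.85) and Jund with Ier2 (0.84) in doxorubicin oocytes. Fosl2 stood apart from the rest, with rhos of 0.03 to 0.42 in control and 0.03 to 0.41 in doxorubicin oocytes. Each of the 7 pairs below 0.5 in either oocyte group was a pair with Fosl2.

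This co-variation went with the transcripts of other cells. With the ranks of the granulosa and stroma marker sums taken out, the median rho was 0.42 in control and 0.29 in doxorubicin oocytes. In the oocytes under 200 CPM of both marker sums it was 0.28 (9 cells, 21 pairs, 15 above 0) and 0.15 (10 cells, 28 pairs, 17 above 0). The median over all gene pairs in those cells was 0.00 and 0.01. Fos with Jun was the closest pair of that doxorubicin subset at 0.65, and Jun with Ier2 that of the control subset at 0.83.

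In granulosa cells the median rho was 0.35 in control cells (36 pairs, Atf3 included, 5 at 0.5 or more, against 4.34% of all gene pairs) and 0.30 in doxorubicin cells (28 pairs, 6 at 0.5 or more, against 6.50%). Fos with Egr1 was at 0.64 in both groups. Fos with Jun was 0.30 in control and 0.77 in doxorubicin granulosa cells, and Junb with Jund was 0.67 and -0.04. With the ranks of the oocyte and stroma marker sums taken out, the median was 0.44 in control and 0.21 in doxorubicin granulosa cells. The oocyte values of 0.42 and 0.29 had granulosa and stroma marker sums taken out instead. Coefficients over 13 to 16 cells are imprecise, the differences between groups were not tested, and leaving out each cell moved the medians within 0.27 to 0.41 and 0.21 to 0.39. Without the cells that held more oocyte than granulosa markers, the median was 0.47 over 13 control and 0.30 over 5 doxorubicin cells. In those cells Fos with Jun was at 0.48 in control and 0.50 in doxorubicin cells, and Junb with Jund at 0.71 and 0.30.

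**Figure D5:**
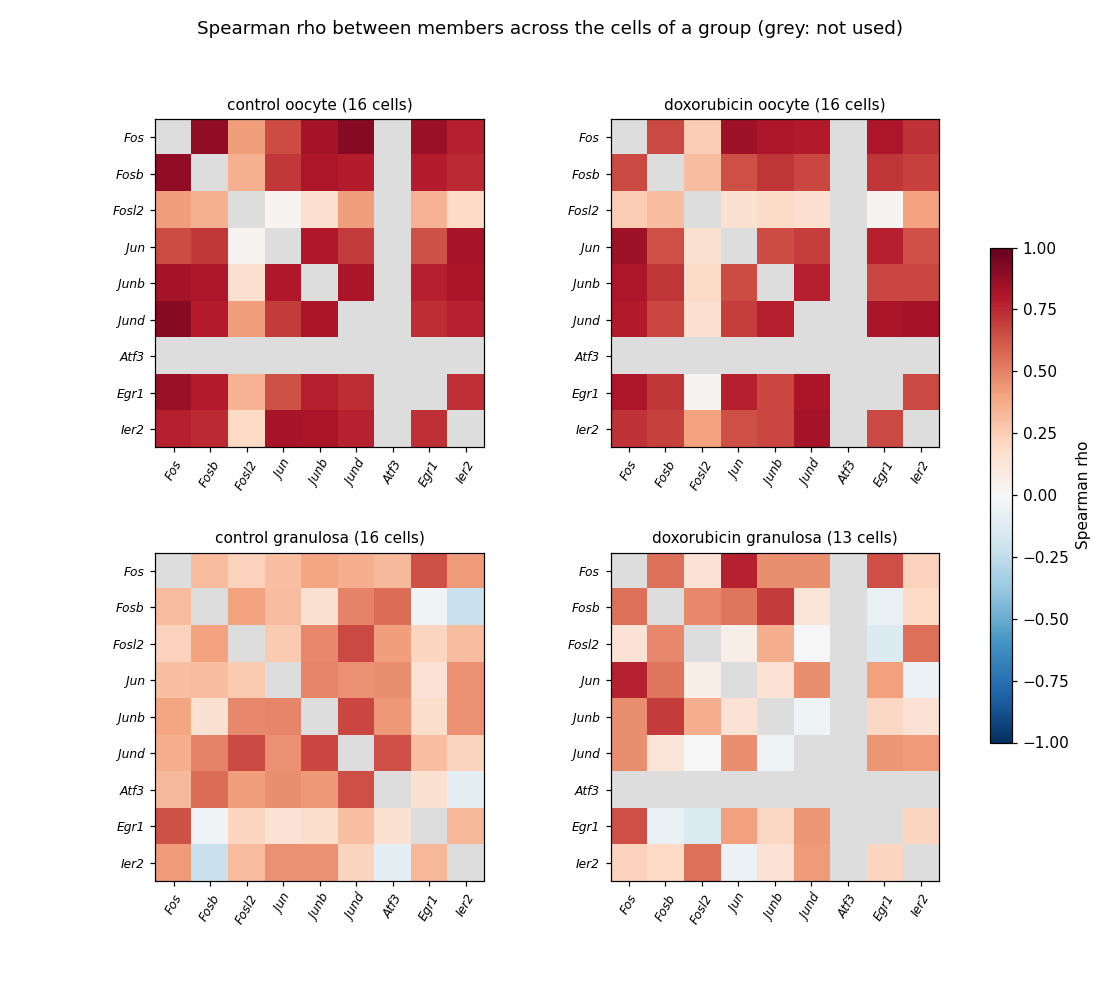
Spearman rho between members across the cells of each group; red is positive, blue is negative and grey marks the diagonal and genes with under 5 reads in most cells. Oocytes show a block of high rho that leaves out Fosl2, and granulosa cells, with medians of 0.35 and 0.30, have Fos and Egr1 at 0.64 in both groups.

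The genes nearest to the members differed by cell type. Likeness was Pearson r of log2(CPM + 1), after taking the group mean from each cell. Across 32 oocytes and 11883 genes, Sparc, which encodes a secreted matrix protein of stromal and granulosa cells, was the nearest gene that is no member for Fos (0.87), Fosb (0.90), Jun (0.77), Junb (0.85) and Jund (0.83). Egr1 had Pcolce, a procollagen-processing enhancer, at 0.86, and Ier2 had Zfp36, an mRNA-decay factor of the immediate early set, at 0.82. Each of these 7 members had 6 of the others among its 100 nearest genes. Fosl2 had none, and its nearest gene was Rtca at 0.62. Across 29 granulosa cells and 6556 genes the nearest genes were Fxyd6 for Fos (0.79), Arid4b for Fosb (0.81), G3bp2 for Jun (0.78), Cdc42ep5 for Egr1 (0.75), Nr4a1 for Junb (0.70), Tfe3 for Fosl2 (0.67), Frmd6 for Jund (0.62) and Srsf1 for Ier2 (0.60). There at most 1 other member stood among the 100 nearest. Nr4a1, an orphan nuclear receptor, is itself an immediate early gene.

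The other immediate early genes were taken from a fixed list. The member sum followed the sum of 27 of them with a rho of 0.89 in control and 0.72 in doxorubicin oocytes, and 0.86 and 0.64 in granulosa cells. In oocytes 12 of 20 with enough counts were higher with doxorubicin (median 0.29), and 3 passed 2-fold, all higher, against 6.3% of all genes. Dusp1, a phosphatase that inactivates JNK and p38, was at 43.3 CPM with doxorubicin and 10.9 CPM with solvent (log2 ratio 1.99, from 1.42 to 2.64 over leaving out each cell). The median cell went the other way, with 0.0888 CPM of Dusp1 with doxorubicin and 4.21 CPM with solvent. Only 6 of 16 doxorubicin oocytes were above that solvent median, and doxorubicin oocyte 6 held 36.8% of their group's Dusp1 counts. Ier3 (1.13) and Nr4a2 (1.05) were the others. Ier3 was at 0.66 without doxorubicin oocyte 11, and Nr4a2 at 0.065 without doxorubicin oocyte 6, which held 52.7% of its group's Nr4a2 counts. In granulosa cells 16 of 24 were lower (median -0.38), with 7 past 2-fold lower and 1 higher. Of all genes, 20% were past 2-fold lower there and 20.6% higher. Nr4a3 (-3.45), Nr4a2 (-3.35) and Klf10 (-1.64) were among the lower ones, and Ier5 (1.69) was the higher one. Without doxorubicin granulosa 14, which held 49.7% of its group's Ier5 counts, Ier5 was at 0.83. The median cell had more Klf10 with doxorubicin (19.8 CPM) than with solvent (10.4 CPM), against the direction of its summed counts. Nr4a3 and Nr4a2 each had at least 5 reads in only 3 control granulosa cells.

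Among 10 other AP-1 related zipper factors, 4 could be used in oocytes and none passed 2-fold. In granulosa cells 3 of 7 were past 2-fold lower. Jdp2, a repressor that pairs with Jun, was at -1.41 and Maff, a small Maf protein, at -1.03. Control granulosa 3 held 49.1% of its group's Jdp2 counts, and without it Jdp2 was at -0.53 and Maff at -0.40. Batf2 was found in 1 control granulosa cell and had no count in the doxorubicin group. Of 17 kinases and factors upstream of the members, 1 of 16 passed 2-fold in oocytes, namely Mrtfa, an SRF coactivator, which was lower (-1.01, from -1.17 to -0.93 over leaving out each cell). In granulosa cells 4 of 17 were past 2-fold higher, among them Map2k7, a kinase that activates JNK, at 41.8 against 6.40 CPM (2.71, from 2.34 to 3.87). Mapk14, encoding p38 alpha, was at 1.72 and Srf at 2.10, with 64.2% of the doxorubicin Srf counts in 1 cell and a ratio of 0.73 without it. Another 4 were past 2-fold lower, among them Mapk10, encoding the third JNK, at 17.4 CPM with solvent and 0.035 with doxorubicin, Elk3 (-3.53) and Atf1 (-1.87). The background for the oocyte counts is 8.75% of all genes past 2-fold. For the granulosa counts it is 20.6% higher and 20% lower. The 4 of 17 upstream genes higher and the 4 lower lay near those shares. The 3 of 7 zipper factors lower stood above theirs, on few genes.

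Of 11 genes known as AP-1 targets, 9 had a row. In oocytes Timp1, a metalloproteinase inhibitor, was the only one with enough counts, at 5.52 against 2.33 CPM (1.24). Its ratio was 0.67 without doxorubicin oocyte 12, a cell with 37.1% of that group's Timp1 counts, 2081 CPM of granulosa markers and 1642 CPM of stroma markers. In granulosa cells 2 of 6 were past 2-fold higher and 2 lower, against 20.6% and 20% of all genes. Ccnd1, encoding cyclin D1, was at 25.6 CPM with doxorubicin, with at least 5 reads in 5 of 13 cells, and at 0.0167 CPM with solvent. Plau, a urokinase, was at 54.6 and 13.2 CPM (2.05, from 1.01 to 3.82 over leaving out each cell). Il6 and Mmp9 had no count in doxorubicin granulosa cells, and each was found with at least 5 reads in 1 control cell only. Among 13 heat shock genes, which mark protein stress, 10 were higher in doxorubicin oocytes and 4 passed 2-fold, against 6.3% of all genes. Among them were Hspa1b (1.71), Hspa1a (1.70) and Bag3 (1.65, from 1.45 to 1.92 over leaving out each cell). Hspa1a and Hspa1b are near-identical copies, so their split is uncertain. Doxorubicin oocyte 9, with 3123 CPM of granulosa markers, held 42.3% of its group's Hspa1b and 42.2% of its Hspa1a counts, and without it both were just under 2-fold (0.996 and 0.981). In granulosa cells 6 of the 13 were higher with doxorubicin and 7 lower. Only 1 was past 2-fold, where 40.6% of all genes were. It was Hspa1b, at 72.0 CPM with doxorubicin and 156 CPM with solvent (-1.12, from -1.50 to -0.72 over leaving out each cell). The member sum had a rho with the heat shock sum of 0.06 and 0.42 in oocytes and of 0.66 and 0.76 in granulosa cells, control first. With Cdkn1a, the p53 target encoding p21, the rho of the member sum lay between -0.23 and 0.16 in all 4 groups. Single members ranged more widely, from -0.50 for Atf3 in control oocytes to 0.55 for Ier2 in doxorubicin oocytes.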

How the data were processed

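The authors deposited 1 table of estimated counts for 23927 gene rows and 61 single-cell libraries, in which 34.0% of nonzero values are not whole. The labels' protocols describe polyadenylated RNA amplified with a SMART-seq kit and tagged with Nextera XT, and the submitters' processing notes name Partek, Bowtie2, HISAT2, DESeq2 and mm10. The counting tool, its annotation, its filters and its handling of strand are not given in the sources used here. The series text says that raw reads of doxorubicin oocyte 4 were lost, and its column was used.

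Counts were rounded and scaled to CPM over all gene rows (Python 3.11.15, pandas 2.3.3, numpy 2.4.6, scipy 1.17.1, matplotlib 3.10.9). A group under 3 counts was set to 3 counts, ratios carry exact conditional binomial 95% intervals, and genes needed 5 CPM in either group. Past 2-fold stands in for a call. The members and all gene lists were chosen with earlier results of these data known. Genes of other lists were named by rule: up to 3 per direction past 2-fold, ranked by the smallest ratio over leaving out each cell, and the 3 nearest genes by r, of which the first is given. Shares of cells have exact binomial intervals. Ratios and rhos were tested on simulated data. Alternatives were edgeR 4.0.16 TMM and DESeq2 1.42.0 size factors (R 4.3.3), other averages and filters, leaving out each cell, and subsets of cells. Transcript lengths are from GENCODE M21.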

Additional observations from a re-analysis of the deposited data

Results flagged for a closer look

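Junb and Ier2 had ratios of opposite sign in the cell types over leaving out each cell in turn, and this difference was not tested. Fosl2 did as well, at 0.56 to 1.03 in oocytes and -1.82 to -0.63 in granulosa cells, but was under 5 CPM in both oocyte groups. For Junb the log2 ratio of doxorubicin over control in granulosa cells minus that in oocytes was -1.16. For Ier2 it was -0.71, and the granulosa part rests on summed counts, since the median Ier2 level of doxorubicin granulosa cells was the higher one. In the oocytes under 200 CPM of granulosa markers, 11 control and 12 doxorubicin cells, the oocyte ratio of Junb was -0.022 and that of Ier2 was 0.28, and in the granulosa cells richer in granulosa than oocyte markers they were -0.40 and -0.089. In the granulosa cells under 500 CPM of stroma, endothelium and blood markers, 6 control and 5 doxorubicin cells, Junb was at -1.58 and Ier2 at -0.082. Under the same cut in oocytes, 13 control and 11 doxorubicin cells, Junb was at -0.12, the same sign, and Ier2 at 0.13. Oocytes under 200 CPM of granulosa and of stroma markers had Junb at 0.76 and Ier2 at 0.34. The sign of Junb in oocytes thus depended on the cells kept.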

How the results depend on the processing

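The lower level of the members in oocytes than in granulosa cells held under every alternative run. The direction of the median doxorubicin ratio in oocytes did not. Fosl2, Jund and Ier2 stayed higher with doxorubicin in oocytes under every alternative, while the other members changed sign. For oocytes the median log2 ratio of 0.32 was 0.42 with cells weighted equally, 0.19 from cell medians, -0.022 (1 member past 2-fold) without cells at 200 CPM or more of granulosa markers, -0.019 (1) for cells under 500 CPM of stroma, endothelium and blood markers, and 0.62 (1) for oocytes under 200 CPM of granulosa and of stroma markers. Leaving out each cell gave 0.10 to 0.68, with 0 to 1 member past 2-fold. For granulosa cells the median of -0.27 was -0.34 and -0.31 by those averages, -0.24 with TMM and -0.24 with DESeq2 size factors, -0.19 (Atf3, -2.37, and Fosl2, -1.77, past 2-fold) without the cells richer in oocyte markers and -0.21 (Fosl2, -2.13, and Junb, -1.58, past it, 2 each time) under 500 CPM, where Atf3 was at -0.21. Leaving out each cell gave -0.41 to -0.16, with 0 to 2 past 2-fold, and Atf3 itself went from -2.56 to 0.033, the latter without control granulosa 3.

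For control oocytes over control granulosa cells the median of -4.52 was -4.48, -4.88, -4.48 and -4.43 by these averages and size factors in turn, -4.98, -4.89 and -6.71 in the subsets of cells, and -4.78 to -4.36 leaving out each cell, with 9 past 2-fold throughout. The median rho in control oocytes was 0.70 at a minimum of 1 read. Without cells at 200 CPM or more of granulosa markers (11 left) it was 0.54. It was 0.42 with marker ranks taken out, 0.28 under 200 CPM of both marker sums and 0.71 to 0.80 leaving out each cell. In doxorubicin oocytes it was 0.42 (12 cells left), 0.29, 0.15 and 0.62 to 0.71. In control granulosa cells it was 0.21 as Pearson r, 0.47 (13 cells left), 0.44 with oocyte and stroma marker ranks taken out and 0.27 to 0.41. In doxorubicin granulosa cells it was 0.20 at 1 read, 0.21 with oocyte and stroma marker ranks taken out and 0.21 to 0.39. Beyond the selections of cells, the causes were not tested. The subset under 200 CPM of both marker sums and the removal of marker ranks were chosen after seeing the data.

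No paired analysis was possible because each group is 1 sample, no result comes from a test, and replicate numbers only name cells. With 13 to 16 cells of unknown origin per group, spread between animals is unknown. Atf3, and Fosl2 in oocytes, rest on few reads in most cells.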
